A study of Mus musculus with 24 samples.

Results

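The response of the dorsal hippocampus to a single training session was followed in heterozygous mice that carry 1 targeted copy of Actl6b, the gene of the chromatin remodelling subunit BAF53b. The comparison took 12 of the 24 libraries of the series: 6 trained heterozygotes against 6 heterozygotes from the home cage. Of the 19661 genes in the deposited table, the 12436 with a mean of at least 1 RPKM (reads scaled to gene length and library size) over these 12 libraries were tested. The trained mice (strain background B6J.129S6-Actl6b<tm1Grc>, genotype Baf53b+/-) were sampled 30 minutes after a session of Object Location Memory training, a task built on exploring objects at set places in an arena, and the home cage mice of that genotype and background were not trained. Both wild-type groups, trained at the same interval or from the home cage (6 animals each), were C57BL/6J, so strain background goes with genotype. Each library is 1 animal, and the labels give neither age nor sex. Home cage animals are the only controls, so what the mice learned cannot be told apart from handling, novelty and exploration. The allele is heterozygous throughout the body and is carried by the trained and the control animals alike. In tissue pieces, more cells of a type and more RNA per cell cannot be told apart.

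BAF complexes move nucleosomes with the energy of ATP, and BAF53b is the actin-related subunit found in the form of the complex that mature neurons carry. When neurons fire, calcium entry and kinase cascades act on transcription factors already in place, such as CREB and SRF, and these switch on immediate early genes without new protein synthesis. The first products are transcription factors of the Fos, Egr and Nr4a families together with inhibitors that shut the kinase cascades down again. Genes for synaptic and secreted proteins are transcribed alongside and after them, and in the hippocampus this programme is known to accompany the storage of spatial memories.

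The genotype and tissue labels were checked first. Actl6b averaged 30.0 ± 1.44 RPKM in home cage heterozygotes and 28.3 ± 1.47 in trained ones (SD, n = 6), or 58.5% and 55.7% of the wild-type means of the same condition, and no heterozygote reached any wild-type animal (two-sided exact permutation p = 0.00216 in each condition, the smallest value 6 against 6 can give). The difference between trained and home cage heterozygotes in Actl6b did not pass the same test (exact permutation p = 0.0758). The summed level of 8 glutamatergic neuron markers, among them Slc17a7 and Camk2a, was 3028 to 3592 RPKM in the home cage and 3149 to 3569 after training. Depth, recovered from the steps in the values, was 30.9 to 46.9 M reads (M for mega), and its median was 36.4 M for home cage and 32.3 M for trained animals. Home cage animals 2422 and 2424 and trained animals 2409 and 2429 were rich in choroid plexus RNA: their Ttr, the transthyretin gene of that epithelium, stood at 1213 to 4572 RPKM, against at most 140 in the other 8 animals. By the Y-linked gene Ddx3y the home cage group held 5 males and 1 female, and the trained group 3 of each.

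Training changed 128 of the 12436 tested genes (1.03%): 110 rose (0.885%) and 18 fell (0.145%). Calls were made by limma at a Benjamini-Hochberg adjusted p under 0.05, with the spread estimated over all 24 libraries of the series. The response was lopsided and mostly small. Among the genes that rose, 9 did so by over 2-fold on the log2(RPKM + 0.5) scale, 12 by 1.5 to 2-fold, 37 by 1.2 to 1.5-fold and 52 by less. Of the genes that fell only 1 exceeded 1.5-fold, and the median was a difference of -0.26 (log2), against 0.28 for the genes that rose and -0.0015 for all tested genes. For 82 of the 110 genes that rose, every trained animal lay above every home cage animal (0.997% of all tested genes did so), and for 11 of the 18 that fell every trained animal lay below (0.330% of all tested). At an unadjusted p under 0.05 stood 1366 genes, or 11.0%. The count of calls was 84 in the heterozygotes fitted alone and 52 without the 6 libraries of the series rich in choroid plexus RNA. All 128 genes kept their direction without those 6 libraries. In the heterozygotes fitted alone the differences are the same by construction, so no direction could change.

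**Figure D1:**
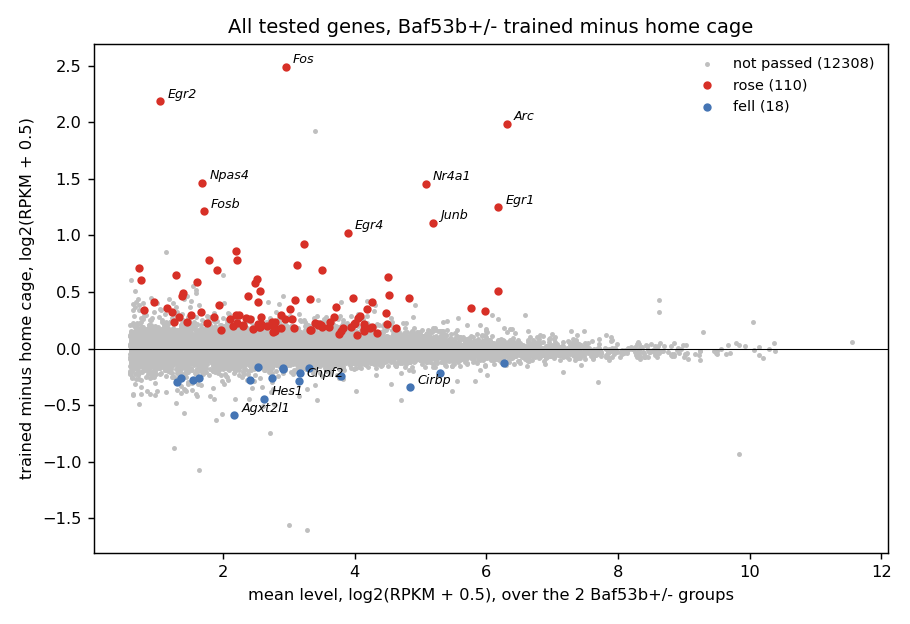
Difference between trained and home cage Baf53b+/- mice (vertical, log2(RPKM + 0.5)) against mean level (horizontal, same scale) for the 12436 tested genes, with the 110 that rose in red and the 18 that fell in blue. The 9 labelled genes at the top rose by over 2-fold, and Agxt2l1 is the lowest of the blue points.

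Transcription factors of the immediate early class were many of the strongest rises, beside Arc, a synaptic gene with the third largest. Of 29 tested members of a list of 32 such factors (Fosl1, Atf3 and Maff were too low to test), 18 rose and none fell. Of all tested genes 0.885% rose, and the median difference of the 29 was 0.45 (log2). This and the other gene lists were drawn up with earlier results of these data known, so their counts describe and do not test. The AP-1 subunit Fos (mm9 chr12:86814851-86818219) lay between 1.10 and 2.31 RPKM in the home cage (median 1.94) and between 10.8 and 15.5 after training (median 12.6), a 6.78-fold difference of the means and 2.49 ± 0.18 (log2, SE; limma adjusted p = 5.87e-09). Its 6 trained values thus sat far above the home cage range, with animal 2410 highest and animal 2435 lowest. Egr2 (chr10:67000617-67004936), a zinc finger factor, was almost silent in the home cage at 0.128 to 0.419 RPKM (median 0.230) and stood at 2.38 to 3.40 after training (median 2.91). That is an 11.8-fold difference of the means, but 2.18 ± 0.13 on the log2(RPKM + 0.5) scale (SE, adjusted p = 1.03e-10), which understates the change of a gene this low. The groups did not overlap.

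Egr1, another zinc finger factor and one of the more abundant early genes in the resting hippocampus, went from 36.8 to 49.1 RPKM (median 42.1) to 85.7 to 107 (median 104). The difference was 1.25 ± 0.07 (log2, SE, adjusted p = 3.73e-11), and trained animal 2409 stood apart below the other 5. Egr4 of the same family went from 8.67 to 9.95 RPKM (median 9.27) to 17.8 to 20.8 (median 19.8), a difference of 1.02 ± 0.07 (log2, SE). The tight home cage range of Egr4 lay wholly below the trained range. Npas4, a factor made only in response to neuronal activity, had the largest SE of the 21 genes over 1.5-fold. It ran from 0.724 to 1.75 RPKM in the home cage (median 1.11) and from 2.87 to 6.23 after training (median 3.98), a difference of 1.47 ± 0.23 (log2, SE, adjusted p = 0.00109). Its highest trained animal, 2410, had more than the lowest, 2435, by a wider margin than separated the lowest trained from the highest home cage animal.

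The nuclear receptor Nr4a1 went from 16.3 to 19.4 RPKM (median 17.2) to 43.7 to 53.9 (median 49.3), a difference of 1.45 ± 0.10 (log2, SE). Its relative Nr4a3 rose less, from 21.8 to 26.1 (median 22.9) to 27.8 to 35.6 (median 32.1), with 0.45 ± 0.08 (log2, SE, adjusted p = 0.00249). For Nr4a2, the remaining member, the groups overlapped: home cage animal 2415 had 26.6 RPKM, above every trained animal, and the difference of 0.39 ± 0.15 (log2, SE) did not pass (adjusted p = 0.320). Within AP-1, Fosb went from 1.21 to 1.805 RPKM (median 1.42) to 3.50 to 4.74 (median 4.03), and Junb from 20.2 to 24.4 (median 22.4) to 42.7 to 52.5 (median 49.8). Both were separated in every animal. The other Jun genes did not pass: Jun differed by 0.16 ± 0.08 and Jund by 0.01 ± 0.05 (log2, SE). For Fosl2 the lowest trained animal, at 7.52 RPKM, lay above the highest home cage animal, at 7.21, with a difference of 0.46 ± 0.12 that just missed the threshold (adjusted p = 0.0539).

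Klf2 and Klf4, Krüppel-like factors, rose by 0.78 ± 0.09 and 0.50 ± 0.10 (log2, SE), while Klf10, Klf6 and Klf5 did not pass, at 0.20 ± 0.10, 0.08 ± 0.09 and -0.05 ± 0.19. Ier2, a nuclear early response protein, went from 2.24 to 3.15 RPKM (median 2.81) to 4.44 to 6.53 (median 5.42), a 1.97-fold difference of the means without overlap. Csrnp1 rose by 0.58 ± 0.07 (log2, SE), Per1, a clock gene that is also an early gene, by 0.41 ± 0.05, and Nab2, a corepressor that binds Egr factors, by 0.29 ± 0.05. Calls for 3 further members were less firm. Egr3 rose by 0.36 ± 0.08 (adjusted p = 0.0201). Leaving out home cage animal 2400, home cage animal 2415, trained animal 2414 or trained animal 2435 ended that call (adjusted p up to 0.0625). Srf, a factor that binds CArG boxes, rose by 0.19 ± 0.04, and its call ended without trained animal 2414 (adjusted p = 0.0579). Nfil3 rose by 0.46 ± 0.07, and without the choroid plexus rich libraries it had an adjusted p of 0.0642, as Egr3 had 0.169 and Srf 0.155. Myc, an early gene in dividing cells, differed by -0.00013 (SE 0.05).

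**Figure D2:**
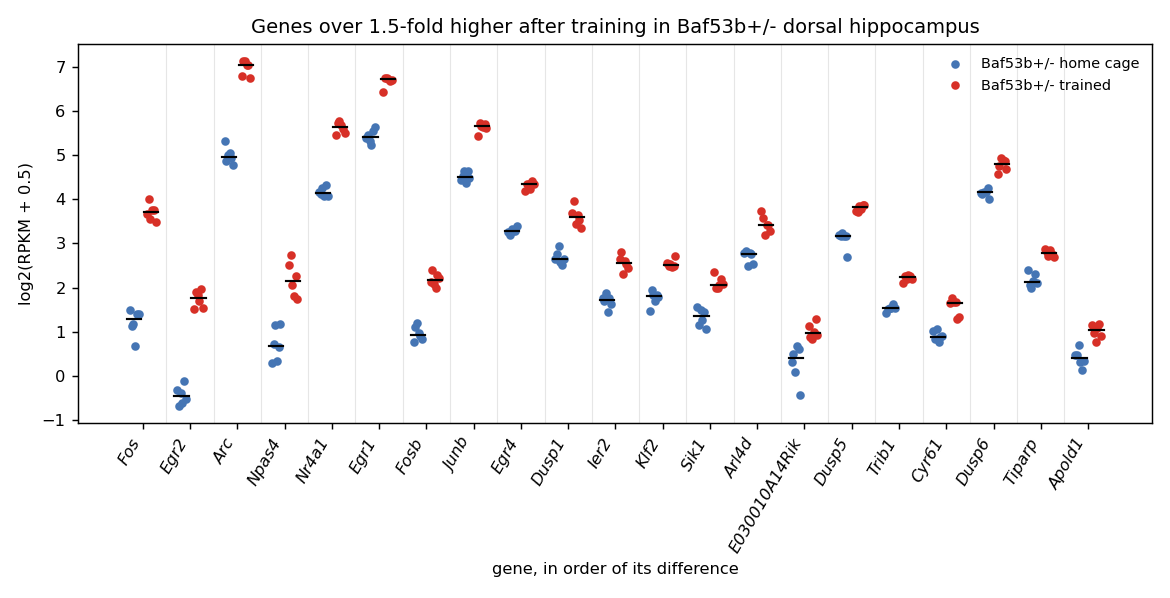
Level of each of the 21 genes that rose by over 1.5-fold, as log2(RPKM + 0.5) (vertical), in the 6 home cage (blue) and 6 trained (red) Baf53b+/- mice, 1 point per animal with the group median as a bar. In all 21 genes the lowest red point lies above the highest blue point.

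Promoter sequence was set beside these values for genes that carry the response. CREB binds the cyclic AMP response element (CRE, letters TGACGTCA) and its core TGACG, and SRF binds the CArG box, searched as CC, 6 bases of A or T, and GG. Matches were taken on both strands of the 300 bases that RefSeq lists around each start (GRCm38.p6, 250 before and 50 after), and a full CRE contains a core on each strand. The 250 bases before the start follow, 5′ to 3′ on the gene's strand, with cores, CREs and CArG boxes in capitals. Fos, Nr4a1, Npas4 and Fosb were chosen to show cores, Dusp1 and Arl4d a full CRE, Egr2 (the third of 5 listed starts) and Dusp5 CArG boxes, and Tiparp a strong riser with no match of these kinds.
Fos (chr12:85473640-85473889, plus strand): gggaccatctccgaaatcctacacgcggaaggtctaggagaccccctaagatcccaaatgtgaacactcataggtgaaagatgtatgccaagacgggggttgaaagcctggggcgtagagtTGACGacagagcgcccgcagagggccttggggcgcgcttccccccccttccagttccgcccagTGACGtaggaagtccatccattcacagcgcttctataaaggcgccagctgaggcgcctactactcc
Nr4a1 (chr15:101266596-101266845, plus strand): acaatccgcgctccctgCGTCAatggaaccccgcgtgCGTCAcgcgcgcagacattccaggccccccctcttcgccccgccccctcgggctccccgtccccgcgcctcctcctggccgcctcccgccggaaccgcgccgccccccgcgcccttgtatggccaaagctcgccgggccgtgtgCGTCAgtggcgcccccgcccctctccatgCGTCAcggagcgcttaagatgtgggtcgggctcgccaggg
Npas4 (chr19:4989972-4990221, minus strand): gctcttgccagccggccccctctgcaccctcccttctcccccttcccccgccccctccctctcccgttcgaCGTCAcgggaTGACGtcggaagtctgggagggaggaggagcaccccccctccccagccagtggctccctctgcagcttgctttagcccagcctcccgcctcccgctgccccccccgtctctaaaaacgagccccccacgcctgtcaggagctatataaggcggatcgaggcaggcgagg
Fosb (chr7:19310046-19310295, minus strand): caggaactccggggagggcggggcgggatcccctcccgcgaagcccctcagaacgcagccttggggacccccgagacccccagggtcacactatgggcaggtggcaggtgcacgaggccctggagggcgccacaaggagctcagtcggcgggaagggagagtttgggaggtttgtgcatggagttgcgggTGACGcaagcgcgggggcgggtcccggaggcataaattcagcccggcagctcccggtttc
Dusp1 (chr17:26508473-26508722, minus strand): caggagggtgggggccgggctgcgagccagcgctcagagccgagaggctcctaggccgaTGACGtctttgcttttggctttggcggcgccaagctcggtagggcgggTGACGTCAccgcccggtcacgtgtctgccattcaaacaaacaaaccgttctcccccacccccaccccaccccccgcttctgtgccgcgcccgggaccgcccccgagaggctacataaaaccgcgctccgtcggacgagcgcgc
Arl4d (chr11:101665291-101665540, plus strand): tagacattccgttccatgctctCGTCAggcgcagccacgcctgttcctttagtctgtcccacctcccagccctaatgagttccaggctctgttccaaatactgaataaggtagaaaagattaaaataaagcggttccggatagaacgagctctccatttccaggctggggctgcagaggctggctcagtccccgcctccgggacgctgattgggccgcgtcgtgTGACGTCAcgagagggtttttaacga
Egr2 (chr10:67537619-67537868, plus strand): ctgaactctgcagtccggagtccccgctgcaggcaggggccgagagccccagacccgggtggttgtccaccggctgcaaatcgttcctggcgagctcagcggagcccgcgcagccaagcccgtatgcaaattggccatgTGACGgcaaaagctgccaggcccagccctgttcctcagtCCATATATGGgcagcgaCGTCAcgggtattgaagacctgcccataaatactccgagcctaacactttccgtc
Dusp5 (chr19:53528895-53529144, plus strand): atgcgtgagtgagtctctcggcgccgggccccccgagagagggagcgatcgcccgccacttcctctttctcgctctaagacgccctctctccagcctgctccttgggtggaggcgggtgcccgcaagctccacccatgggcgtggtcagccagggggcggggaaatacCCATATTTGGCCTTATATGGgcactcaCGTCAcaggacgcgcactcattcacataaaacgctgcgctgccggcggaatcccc
Tiparp (chr3:65528197-65528446, plus strand): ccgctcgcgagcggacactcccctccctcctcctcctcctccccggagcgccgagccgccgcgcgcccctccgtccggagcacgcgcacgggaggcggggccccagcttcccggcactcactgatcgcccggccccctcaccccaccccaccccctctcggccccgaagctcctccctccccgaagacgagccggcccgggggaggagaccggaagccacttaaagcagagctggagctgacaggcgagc

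Of the 21 genes over 1.5-fold higher, 16 had a promoter in the RefSeq table. A gene with several listed starts counted as a match if any of its promoters held one. A core was held by 13 of these 16, against 3539 of the 9845 tested genes with a promoter (35.9%). Among genes with 1 listed start a core was held by 12 of 15, against 33.3% of 7750 tested genes. A full CRE was held by 2 of the 16, and by 3.56% of all 9845. The CArG box was also held by 2 of the 16, against 1.57%, and by 1 of the 15 with 1 listed start, against 1.28%. The AP-1 site TGANTCA had no match in the 16, against 5.75% of the 9845. Among all genes that rose, 87 of 110 had a promoter and 49 of the 87 held a core (56.3%). Since under 80% of the genes in each of these sets had a promoter, a comparison of shares is void, and the counts describe the promoters in hand. Arc, Egr1, Egr3, Ier2, Sik1 and Trib1 were among those without an entry. A match is a run of letters, not a bound site.

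Inhibitors of the signalling that drives early genes rose with them. Of 36 tested members of a list of 39 feedback and RNA decay genes (Dusp2, Socs3 and Pim1 were too low), 14 rose and none fell, with a median of 0.24 (log2) and 34 positive differences, where 49.2% of all tested genes were positive. Phosphatases that inactivate MAP kinases were prominent. Dusp1 went from 5.23 to 7.15 RPKM (median 5.75) to 9.66 to 15.1 (median 11.5), a difference of 0.92 ± 0.11 (log2, SE, adjusted p = 2.83e-05). Dusp6, which acts on ERK, went from 15.5 to 18.7 (median 17.3) to 23.2 to 30.1 (median 27.4), with 0.64 ± 0.06. Neither gene had overlapping groups. Dusp5 rose by 0.70 ± 0.12 and Dusp4 by 0.44 ± 0.07 (log2, SE), and home cage animal 2424 held the lowest Dusp5 at 5.97 RPKM against 8.50 in the next. Dusp14 did not pass (0.03 ± 0.06).

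Sik1, a kinase that restrains the coactivators of CREB, went from 1.59 to 2.45 RPKM (median 2.06) to 3.47 to 4.64 (median 3.69). Its relatives Sik2 and Sik3 did not pass, at 0.08 ± 0.05 and 0.04 ± 0.04 (log2, SE), against 0.78 ± 0.10 for Sik1. Arl4d, a small GTPase, went from 5.15 to 6.57 RPKM (median 6.32) to 8.69 to 12.7 (median 10.2). The pseudokinase gene Trib1 went from 2.18 to 2.57 (median 2.39) to 3.77 to 4.37 (median 4.20). All trained animals were above all home cage animals for Sik1, Arl4d and Trib1. Gadd45b rose by 0.51 ± 0.07 (log2, SE) and Gadd45g, at 0.29 ± 0.09, did not pass (adjusted p = 0.171). Midn, whose product promotes the breakdown of nuclear proteins, rose by 0.44 ± 0.05 with adjusted p = 1.60e-06, and Spry4, an inhibitor of receptor tyrosine kinase signalling, by 0.39 ± 0.06. Btg2, an antiproliferative factor tied to mRNA deadenylation, rose by 0.58 ± 0.10 and Errfi1, an inhibitor of the EGF receptor, by 0.27 ± 0.06. Without the choroid plexus rich libraries Btg2 had an adjusted p of 0.110 and Errfi1 of 0.216. The AU-rich element binding factors of the Zfp36 family did not pass: Zfp36 stood at 0.07 ± 0.08, Zfp36l1 at 0.13 ± 0.07 and Zfp36l2 at -0.13 ± 0.07.

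Among genes for synaptic and secreted proteins Arc and Cyr61 passed. These are 2 of 25 tested members of a list of 26, where 0.885% of all tested genes rose. Of the 25 differences 22 were positive, against 49.2% of all tested, and the median was 0.19 (log2). Arc (mm9 chr15:74499513-74503000), which helps remove AMPA receptors from synapses, went from 26.9 to 39.2 RPKM (median 30.8) to 107 to 139 (median 131), a 3.998-fold difference of the means and 1.99 ± 0.15 (log2, SE, adjusted p = 6.01e-09). After training it was the most abundant per length of the 21 strongest risers, and no home cage animal came near the lowest trained animal, 2435. Cyr61, a secreted matrix-associated protein, went from 1.195 to 1.60 RPKM (median 1.35) to 1.95 to 2.896 (median 2.65), a difference of 0.65 ± 0.09 (log2, SE). Trained animals 2429 and 2435 were the lowest for Cyr61 yet still above the home cage range.

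A pair of plasticity genes stood just outside the threshold with complete separation. The neurotrophin Bdnf lay between 6.86 and 10.1 RPKM in the home cage and between 10.3 and 11.3 after training, a difference of 0.27 ± 0.07 (log2, SE, adjusted p = 0.0693). Nptx2, a secreted pentraxin that gathers AMPA receptors, lay between 9.18 and 12.1 and between 12.9 and 17.9, with 0.41 ± 0.11 (adjusted p = 0.0613). Home cage animals 2415 for Bdnf and 2400 for Nptx2 were the lowest of their group. Other members gave values near 0: the scaffold gene Homer1 stood at 0.09 ± 0.06, Nrn1 at 0.06 ± 0.07, Rheb at 0.004 ± 0.04 and Syt4 at -0.007 ± 0.06 (log2, SE). Ptgs2, which encodes cyclooxygenase-2, stood at 0.20 ± 0.09 (adjusted p = 0.433), and Ctgf, with a single home cage animal (2415) at 9.46 RPKM, at 0.31 ± 0.34.

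**Figure D3:**
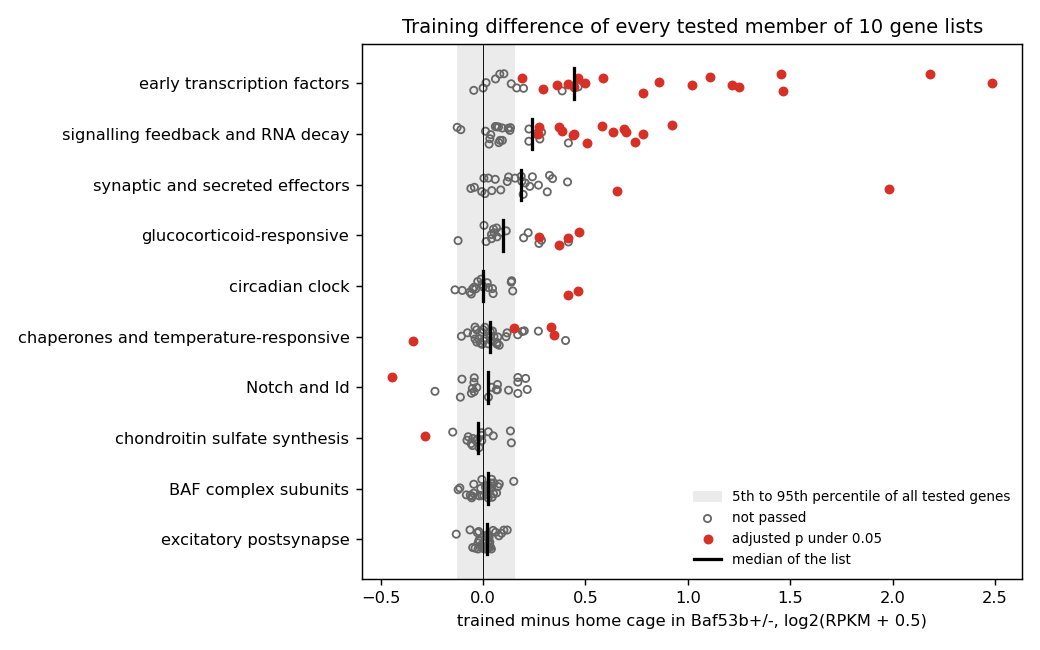
Difference between trained and home cage Baf53b+/- mice (horizontal, log2(RPKM + 0.5)) for every tested member of 10 gene lists, red where adjusted p was under 0.05, with each list's median as a black bar. The grey band spans the 5th to the 95th percentile of all tested genes (-0.12 to 0.15). The medians of the first 3 lists (0.45, 0.24 and 0.19) lie to its right, and those of the BAF and postsynapse lists (both 0.02) inside it.

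Outside these lists, most of the remaining rises were below 1.5-fold. Tiparp, an ADP-ribosyltransferase, went from 3.48 to 4.74 RPKM (median 3.84) to 5.95 to 6.79 (median 6.38), a difference of 0.62 ± 0.08 (log2, SE). Apold1, a gene of endothelial cells, rose by 0.61 ± 0.10 and the uncharacterised E030010A14Rik by 0.72 ± 0.15. Both kept their call when any 1 heterozygote was left out. Without the choroid plexus rich libraries both lost it (adjusted p = 0.176 for Apold1 and 0.215 for E030010A14Rik). The latter also missed the threshold in the heterozygotes fitted alone (0.0758) and after quantile normalization (0.0674). The other 19 of the 21 genes over 1.5-fold passed without those libraries. D4Wsu53e, at a high level of 52.9 to 63.2 RPKM in the home cage (median 60.9) and 77.0 to 87.1 after training (median 85.2), rose by 0.51 ± 0.07. Its groups were fully apart. Among regulators of transcription and chromatin, the histone demethylase gene Kdm6b rose by 0.26 ± 0.04, the corepressor Spen by 0.20 ± 0.04 and the coregulator Sertad1 by 0.30 ± 0.06. Dact1, an inhibitor of Wnt signalling, rose by 0.47 ± 0.08, the secreted protease Adamts1 by 0.41 ± 0.07 and the survival factor Mcl1 by 0.31 ± 0.04. Slc25a25, a mitochondrial carrier of ATP, rose by 0.19 ± 0.03, Stk40 by 0.26 ± 0.04, the tyrosine phosphatase Ptpn1 by 0.18 ± 0.03 and Frmd4a by 0.17 ± 0.03. Genes of zinc finger proteins named Zfp made up 8 of the 110 that rose (7.27%) and 301 of all tested (2.42%). They also made up 2 of the 18 that fell (11.1%). None of the 8 that rose exceeded 1.5-fold.

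The genes that rose were short. The median span from start to end in the table was 11.3 kb for the 110 and 4.25 kb for the 21 over 1.5-fold, against 22.9 kb for all tested genes. Of the 21, 85.7% spanned under 10 kb, against 26.7% of all tested, while the 89 smaller rises had a median of 14.8 kb. The 18 genes that fell had a median of 7.99 kb.

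Of 20 tested members of a list of 24 genes that respond to glucocorticoids, 4 rose (0.885% of all tested genes did), 19 were positive (49.2% of all tested) and the median was 0.10 (log2). Of these 4, Per1 is also on the list of early transcription factors, and Nfkbia and Errfi1 are on that of feedback genes, which leaves Ddit4 on this list alone. Ddit4, an inhibitor of mTOR signalling, went from 15.2 to 20.7 RPKM (median 19.4) to 24.2 to 28.7 (median 26.2), a difference of 0.47 ± 0.07 (log2, SE, adjusted p = 0.000602), without overlap. Nfkbia, the inhibitor of NF-kappaB, rose by 0.37 ± 0.06. The immunophilin gene Fkbp5, a strong target of the glucocorticoid receptor, was in the home cage at 15.97 to 19.97 RPKM and after training at 16.1 to 19.9, with fully overlapping groups. Sgk1, which is on the feedback list too, was higher by 0.42 ± 0.14 and did not pass (adjusted p = 0.204). Its trained values ran from 15.03 to 30.6 RPKM with animal 2409 at the top, while the home cage values ran from 12.3 to 17.3.

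Among 36 chaperones and temperature-responsive genes, 3 rose and 1 fell, against 0.885% and 0.145% of all tested genes. Of the 36 differences 23 were positive and the median was 0.03 (log2). The co-chaperone Dnajb1 went from 14.5 to 16.7 RPKM (median 15.2) to 18.2 to 21.7 (median 19.4), a difference of 0.35 ± 0.05 (log2, SE, adjusted p = 0.000307), with no overlap. Dnajb5 rose by 0.33 ± 0.07 and Dnajb4 by 0.15 ± 0.03, the latter with an adjusted p of 0.268 without the choroid plexus rich libraries. The heat shock genes Hspb1 and Hspa1a did not pass, at 0.40 ± 0.13 and 0.27 ± 0.10. Of 20 circadian clock genes, Per1 and Nfil3 rose, 10 were positive and the median was -0.0026, or -0.03 to 0.02 when any 1 heterozygote was left out. Per2, at 0.14 ± 0.09, did not pass. None of 29 BAF complex subunits passed (median 0.02, lowest adjusted p = 0.313 for Smarcd3), and none of 36 genes of the excitatory postsynapse (median 0.02, lowest adjusted p = 0.228 for Nlgn1).

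Of the 18 genes that fell, 1 carries a name turned into a date and is not described, and of the other 17 only Hes1 kept its call in every alternative run. Hes1 (mm9 chr16:30065443-30067882), a repressor that is a classic target of Notch signalling, lay between 6.15 and 7.52 RPKM in the home cage (median 6.52) and between 3.74 and 5.28 after training (median 4.97). The difference was -0.44 ± 0.08 (log2, SE, adjusted p = 0.00387), and every trained animal was below every home cage animal, with 2410 the lowest. The rest of the Notch and Id list did not follow: of 21 tested, Hes1 alone passed, 11 were positive and the median was 0.03. That median turned to -0.04 without home cage animal 2400 and to -0.03 without home cage animal 2417. Hes5, its close relative, stood at -0.24 ± 0.13 (adjusted p = 0.554), while the ligand and receptor genes Dll1, Jag1 and Notch1 were positive at 0.17 ± 0.05, 0.21 ± 0.08 and 0.17 ± 0.06 without passing. Maml1, a coactivator of Notch, was higher in all 6 trained animals at 0.17 ± 0.05 but had an adjusted p of 0.0933.

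Chpf2, an enzyme of chondroitin sulfate synthesis, lay between 8.38 and 11.8 RPKM in the home cage (median 8.92) and between 7.22 and 7.95 after training (median 7.46). Its difference was -0.28 ± 0.06 (log2, SE, adjusted p = 0.00826), with a single high home cage animal and no overlap. The call ended in the heterozygotes fitted alone (adjusted p = 0.0871) and without the choroid plexus rich libraries (0.256). It was the 1 gene that passed of 17 chondroitin sulfate genes, of which 4 were positive and whose median was -0.03. Pex3, needed to build peroxisomes, fell by 0.17 (SE 0.03, adjusted p = 0.00529) and had an adjusted p of 0.301 without those libraries.

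Agxt2l1, a phospholyase gene of astrocytes, showed the largest fall of the genes that passed. It lay between 4.09 and 5.73 RPKM in the home cage (median 4.74) and between 2.33 and 4.52 after training (median 3.02), a difference of -0.59 ± 0.13 (log2, SE, adjusted p = 0.0146). Trained animal 2409, at 4.52 RPKM, was inside the home cage range and the other 5 were below it. The call ended without trained animal 2435 (adjusted p = 0.0509) and in the heterozygotes alone (0.0530). Of the other 12 tested astrocyte markers none passed, and the list's median was -0.0045 (-0.02 to 0.01 when any 1 heterozygote was left out). Cirbp, an RNA-binding protein induced by cold, lay between 25.5 and 33.8 RPKM (median 32.5) and between 22.9 and 27.3 (median 23.9), with -0.34 ± 0.08 (adjusted p = 0.0257). Home cage animal 2401 alone fell within the trained range. Cirbp lost its call when any of home cage animals 2400, 2415, 2417 and 2424 and trained animals 2409, 2414, 2416 and 2429 was left out (adjusted p up to 0.0807), and without the choroid plexus rich libraries (0.443). Rbm3, the other cold-inducible gene, lay at 1.66 to 2.14 RPKM in the home cage and 1.60 to 2.20 after training. Of the 18 calls for falling genes, 4 held when any 1 heterozygote was left out, against 78 of the 110 for rising genes.

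**Figure D4:**
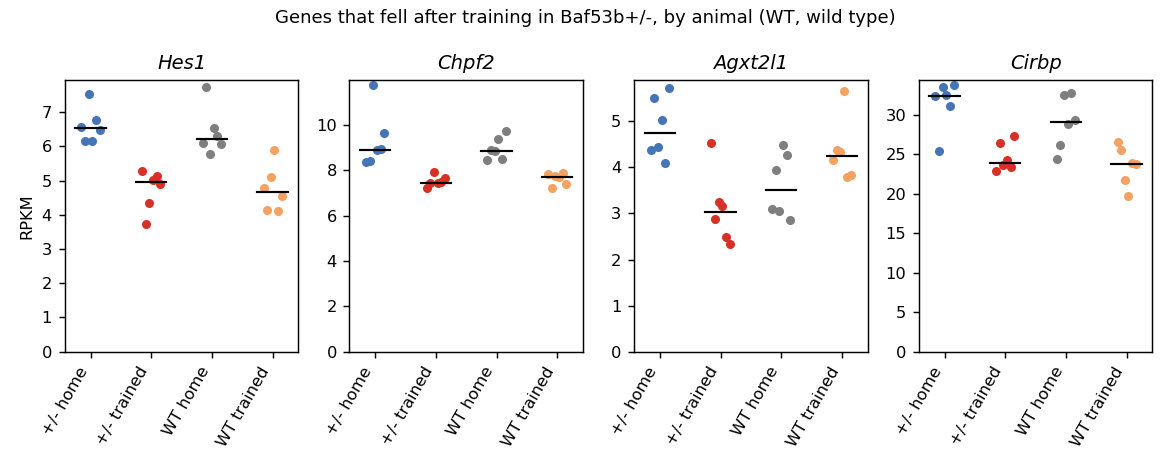
Level in RPKM (vertical, from 0) of 4 genes that fell in Baf53b+/- mice, by animal in the 4 groups of 6, with medians as bars. For Hes1 and Chpf2 the trained heterozygotes lie wholly below the home cage heterozygotes, and for Agxt2l1 the wild-type groups stand in the opposite order.

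Of the cell type markers, Agxt2l1 among the astrocyte genes and Sox11 among those of immature neurons passed, and no other did. Of 14 choroid plexus markers none was positive (median -0.37) and none passed. That direction rests on single libraries: without home cage animal 2424, 12 of 14 were positive (median 0.09), and without home cage animal 2422, 5 of 14 (median -0.03). The other omissions gave medians of -0.82 to -0.15. Their summed level ran from 65.3 to 5452 RPKM in the home cage and from 74.4 to 2835 after training, with none of them at 0 in any of the 12 libraries. Adding the level of these markers to the model gave 126 calls, which shared 119 genes with the 128, and without the 6 rich libraries of the series 52, of which 49 were among the 128. Of 14 dentate gyrus markers 13 were positive (median 0.15). Home cage animal 2415 had the lowest dentate level, 135.5 RPKM summed against 220.6 to 252 in the rest of its group, and without it 7 of 14 were positive and the median was -0.00036. Among 14 oligodendrocyte markers 13 were positive (median 0.13, or 0.19 without trained animal 2410), and among 18 endothelial and mural markers 14 (median 0.09), with no call in either. Of 8 meninges and fibroblast markers 6 were positive (median 0.31, or 0.50 without home cage animal 2401 and 0.22 to 0.38 without any other heterozygote), again with no call. Sox11, a factor of immature neurons, rose by 0.29 ± 0.07 (log2, SE, adjusted p = 0.0223), and its call ended in 5 of the 12 fits that left out 1 heterozygote, namely home cage animals 2401 and 2424 and trained animals 2416, 2429 and 2435 (adjusted p up to 0.0767). It also ended in the heterozygotes fitted alone (0.0583) and without the choroid plexus rich libraries (0.310). The part of these cell types in the results was not tested. Adding sex to the model gave 110 calls, and 108 of the 128 genes were in that list.

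The strength of the response was compared between animals. Averaged over the 21 strongest risers, each trained heterozygote stood 0.99 to 1.2 (log2) above the home cage mean of its genotype (median 1.08). Home cage heterozygotes stood between -0.077 and 0.071. These genes were picked by their rise in the same heterozygotes, so a high average in the trained group was fixed by that choice. Wild-type values entered the choice only through the estimate of spread shared by all 24 libraries, which makes the genotypes unlike in this comparison. Animal 2410 had the highest value of the trained group in 11 of the 25 genes with the largest rise, and 2409 the lowest in 8. In trained wild-type animals the same average ran from 0.972 to 1.49, with animal 2436 at the top. The SD among trained animals was smaller in heterozygotes than in wild type for 19 of these 21 genes, against 60.5% of all tested genes. In the home cage it was also smaller in heterozygotes for 15 of the 21, against 42.7% of all tested. Without wild-type animal 2436, a choice made after the values were seen, the SD among trained animals was smaller in heterozygotes for 8 of 21. These spreads were not tested.

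The same comparison in wild type, from the same model of all 24 libraries, gave values to set beside these. Both call lists share 1 estimate of spread and a gene filter set on heterozygotes, so they are not independent. In wild type 131 of the same 12436 genes passed (1.05%): 116 rose (0.933%) and 15 fell (0.121%). Of the calls in heterozygotes 68 were shared with the same direction (64 rose and 4 fell), which is 53.1% of the heterozygote list and 51.9% of the wild-type list. Of the 128 genes, 127 had the same sign in wild type. The 60 that did not pass there had a median absolute wild-type difference of 0.15 (log2). Over all 128 the median absolute difference in heterozygotes, where the genes were picked, was 0.27. Fos differed by 2.63 in wild type and 2.49 in heterozygotes, and the difference of the 2 responses was -0.15 (95% interval -0.68 to 0.39). For Arc it was 0.09 (-0.33 to 0.52), for Egr2 0.15 (-0.24 to 0.54), for Npas4 0.17 (-0.52 to 0.86) and for Egr1 0.04 (-0.16 to 0.25). These intervals include 0 and, for Npas4, also differences of over 0.8 in favour of the heterozygotes.

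No gene passed the test of the difference between the responses by limma (0 of 12436, 0.00%), and 309 stood at an unadjusted p under 0.05 (2.48%), 10 of them among the 128. The gene that went against the common direction was Agxt2l1, at -0.59 in heterozygotes and 0.24 in wild type. Its wild-type home cage values of 2.85 to 4.48 RPKM lay mostly below those of the home cage heterozygotes, and its trained wild-type values of 3.78 to 5.65 mostly above those of the trained heterozygotes. The difference of the responses was -0.83 ± 0.18 (SE; unadjusted p = 9.76e-05, adjusted p = 0.986). Irf2bp2 rose in both genotypes, by 0.18 ± 0.04 in heterozygotes and 0.34 in wild type, with a difference of -0.16 ± 0.05 (unadjusted p = 0.00633, adjusted p = 0.986). Its heterozygote call ended in those 12 libraries alone (adjusted p = 0.0583) and without the choroid plexus rich ones (0.399). Nptx2 and Bdnf, which were separated in heterozygotes, differed by 0.13 and 0.09 in wild type, and for neither did the test of the difference pass.

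**Figure D5:**
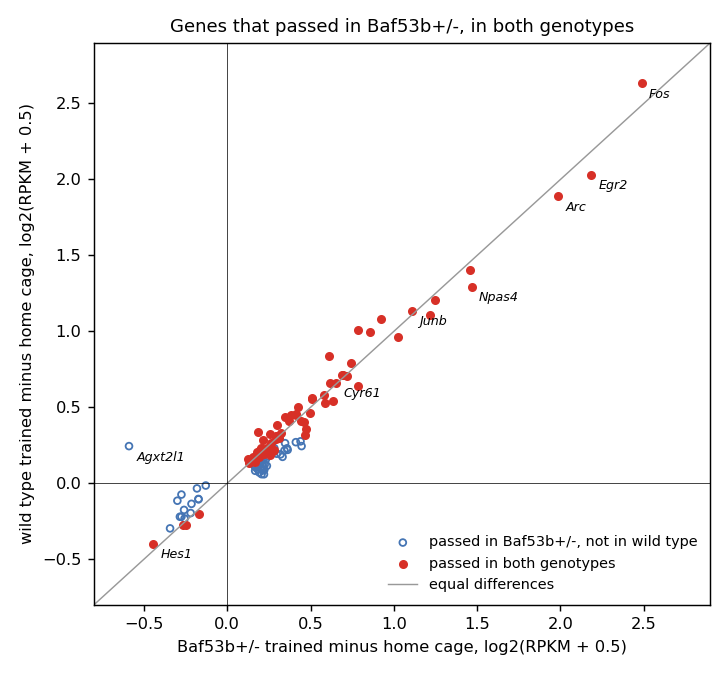
Training difference in Baf53b+/- (horizontal) and in wild type (vertical), both as log2(RPKM + 0.5), for the 128 genes that passed in Baf53b+/-, filled where they also passed in wild type with the same direction (68 genes). The line marks equal differences, and the genes were picked by the Baf53b+/- difference only, with the spread estimated over all 24 libraries. Agxt2l1 alone lies in the quadrant of opposite signs.

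At the threshold itself, Zfp592 (adjusted p = 0.0486) and Erf (0.0480) were among the last genes inside, and C430048L16Rik (0.0504) and Gimap6 (0.0506) the first outside.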

How the data were processed

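Bulk RNA of bilateral dorsal hippocampus from 24 mice was sequenced with unstranded libraries as single 50-base reads in 4 multiplexed pools, per the labels' protocols, with no label for the pool of an animal. The authors deposited RPKM values for 19661 genes. CASAVA 1.8.2, Bowtie 0.12.8 and mm9 are named in the submitters' processing notes. The counting of reads per gene: not given in the sources used here. Overlapping and antisense genes therefore cannot be told apart. Among the gene names 18 had turned into dates and 17 rows had repeated names. No column was left unused (0).

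Genes with a mean RPKM of at least 1 over the 12 Baf53b+/- libraries were put on the log2(RPKM + 0.5) scale, which understates changes of low genes. One limma 3.58.1 model (R 4.3.3, trend and robust, 20 residual degrees of freedom) was fitted to 4 groups of 6 animals, with Benjamini-Hochberg adjustment over all 12436 genes and a threshold of 0.05. Actl6b was tested with an exact permutation test. The fit was tested on simulated data with independent noise for each gene, so variation shared between genes, such as choroid plexus content, was not covered. It recovered 78% of 100 changes of 0.3 (log2) and 91% of 100 changes of 0.6, and 4.52% of its calls were false. Depth was recovered from 971 single-exon genes as whole multiples of the value of 1 read, up to 30 reads and within 0.05 reads: 46.2% to 56.6% of values came out whole, against at most 8.2% as the median over other depths tried. Since not nearly all values came out whole, no count test was run.

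Alternatives were the heterozygotes alone, other pseudocounts, filters, normalizations and variance models, covariates for sex and choroid plexus markers, and libraries left out. Promoters came from RefSeq (GRCm38.p6) by symbol, while gene positions are those of the table (mm9). Any gene that passed could be named, with values in every animal for up to 25 with the largest rise, for up to 15 with the largest fall and for list members that results turn on. Members of the first 3 lists could be named whatever their p, as could the genes nearest the threshold, and of other lists those that passed and up to 6 by p. Fkbp5, Rbm3, Per2, Hes5, Hspb1 and Hspa1a were named for what they are known for, with their values seen. The members, gene lists and tests were chosen with earlier results of these data known.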

Additional observations from a re-analysis of the deposited data

Results flagged for a closer look

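In 13 of 258 groups examined (the 6 home cage or 6 trained heterozygotes, for each of the 128 genes that passed and for Actl6b), 1 animal lay far from the other 5. Chance marks about 1 in 20 such groups. In the home cage these were BC031781 in animal 2400 (6.633 RPKM), Fbxl14 in 2415 (6.86 RPKM), Zfp180 in 2417 (15.95 RPKM), Cirbp in 2401 (25.48 RPKM), Dusp5 in 2424 (5.973 RPKM) and Prkx in 2415 (3.533 RPKM). After training they were Tnik in animal 2429 (23.51 RPKM), Tsc22d2 in 2414 (5.682 RPKM), D4Wsu53e in 2429 (77.05 RPKM), Fam46a in 2410 (1.478 RPKM), Zfp295 in 2429 (4.014 RPKM), Egr1 in 2409 (85.73 RPKM) and Pls3 in 2429 (70.6 RPKM). Trained animal 2429 accounts for 4 of the 13. Without any single heterozygote Egr1, Dusp5 and D4Wsu53e kept their calls.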

How the results depend on the processing

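The training response of Baf53b+/- had 128 calls, and 84 when the 12 heterozygotes were fitted alone, 84 at a mean RPKM of 5 or more (fewer genes tested) and 52 without the choroid plexus rich libraries (fewer samples). Leaving out each heterozygote in turn gave 96 to 142. The wild-type response had 131 calls, 83 at a mean RPKM of 5 or more and 69 without the choroid plexus rich libraries, with 118 to 152 when a heterozygote was left out. The difference of the responses had 0 calls in every alternative run. All tested genes of the 128 kept their direction in every alternative. In the heterozygotes alone, and under other filters and variance models, that direction could not change. Over named genes and alternatives, 3819 values kept their direction and side of the threshold, 526 lost the call, 8 gained it and 4 reversed. The 4 reversals were without the choroid plexus rich libraries, in genes that did not pass: Klf6 to -0.0142, Sik3 to -0.0084, Tac1 to -0.0392 and Rheb to -0.0587 (log2), and the cause was not tested. The count of strongest rises with a smaller SD in trained heterozygotes went from 19 to 8 of 21 without trained wild-type animal 2436, chosen after seeing the data. No paired analysis was possible because the replicate numbers are animal numbers that no 2 groups share. The number of animals and the RPKM unit, which carries no count, limit the precision of low genes.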
